A study of Homo sapiens with 8 samples.

Results

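Matrix proteoglycan, fibrillin and hyaluronan genes were followed in 143BTK- cells given a synthetic miR-101-3p. 143BTK- is an osteosarcoma cell line of human origin without working thymidine kinase. The 9 genes are CCDC80, LUM, EDIL3, VCAN, FBN1, FBN2, CEMIP, HAS2 and CD44, taken by symbol from a table of 15982 genes. They were chosen by their level with miR-101 against the negative control in these same libraries. Per the labels, 4 cultures received the synthetic mimic hsa-miR-101-3p and 4 received a scrambled negative control mimic, each as 80 pmol given with Lipofectamine RNAiMAX at the start and again at 48 h. All cultures were harvested at 120 h, and the medium of both groups held 10 mM galactose in place of glucose, 5% dialysed serum, uridine and GlutaMAX. Penicillin and streptomycin were in the medium except in the transfection mix. The 4 replicate numbers stand for 4 independent transfection experiments, and all cultures come from 1 line. By its title the study relates this miRNA to mitochondrial metabolism, and the matrix genes described here are read from the same libraries.

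The extracellular matrix holds collagens, proteoglycans, which are core proteins that carry long sulfated sugar chains, and microfibrils built of fibrillins. Hyaluronan is a sugar chain without a core protein. Synthases of the HAS family make it at the cell surface, versican and CD44 bind it, and CEMIP takes part in its breakdown. Osteosarcoma is a tumour of bone-forming mesenchyme, and its cells make much of their own matrix.

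The 9 genes were proposed with their difference between miR-101 and negative control already known, so those differences are given below as a description and without a test. In these bulk samples a change in the share of cells that express a gene and a change in its RNA per cell cannot be told apart.

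Libraries held 17603054 to 20160267 counts, and 15977 to 15982 genes had a count above 0. The 10 most abundant genes took 19.4% of counts in miR-101 replicate 4 and 19.3% in negative control replicate 3, against 14.1% to 15.8% in the other 6 libraries. Replicates 1 and 2 lay closest together in both groups, but differed by more than sampling noise. Their median squared difference was 2.25 times that noise with miR-101 and 2.44 times in the control, against 5.42 to 21.6 times for other pairs of the same group. Of the 6 markers listed for osteosarcoma and mesenchymal cells, 5 were analysed and all of them stood above 1 CPM (CPM, the counts of a gene per fixed number of counts in its TMM-scaled library). Their summed level was 975 to 2005 CPM with miR-101, against 993 to 1478 CPM in the control. RUNX2 among them rose (log2 fold change 0.93 ± 0.212, edgeR adjusted p = 0.0269). COL1A1 (1.10, edgeR adjusted p = 0.0619), SPARC (0.74, edgeR adjusted p = 0.396), TWIST1 (0.29, edgeR adjusted p = 0.183) and VIM (-0.20, edgeR adjusted p = 0.596) were not called. Each of the lists for epithelial cells, leukocytes and endothelial cells had 1 marker analysed here, namely EPCAM, CD14 and PECAM1, at up to 17.0 CPM with miR-101, against up to 10.0 CPM in the control. Of the fibroblast markers only PDGFRA, which bone-forming mesenchyme also expresses, was analysed, and it rose (log2 fold change 0.70 ± 0.132, edgeR adjusted p = 0.0108). The 3 chondrocyte markers analysed, of 4, summed to 29.7 to 39.2 CPM with miR-101, against 31.4 to 101.2 CPM in the control, and they did not move together. MATN3 rose (log2 fold change 0.91, edgeR adjusted p = 0.0194), while SOX9 (-0.97, edgeR adjusted p = 0.0791) and ACAN (0.02, edgeR adjusted p = 0.978) were not called. The part of these markers in the results below was not tested.

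The mature miRNA is shown first, because its seed, bases 2 to 8 in capitals, sets which messages it can pair with. Below it stand the matches to that seed in the 3' UTRs of FBN2, CCDC80 and VCAN, read from GENCODE 29 transcripts (GRCh38) in their longest annotated 3' UTR, with the matching bases in capitals. An 8mer is GTACTGTA, a 7mer-m8 is GTACTGT not followed by A, and a 7mer-A1 is TACTGTA not preceded by G. The miRNA is credited to RefSeq (GRCh38.p14), from its entry for the gene MIR101-2, at chr9:4850345-4850365 on the plus strand.
hsa-miR-101-3p: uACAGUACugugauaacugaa
FBN2 8mer, 801 bases after the stop codon (chr5:128258636-128258665, minus strand): caggccaaaccGTACTGTAtttccttctca
FBN2 8mer, 889 bases after the stop codon (chr5:128258548-128258577, minus strand): gcgtcctcatgGTACTGTAggcagctgaag
FBN2 7mer-A1, 210 bases after the stop codon (chr5:128259228-128259256, minus strand): gcaaccgtggtTACTGTAttttttatata
FBN2 7mer-A1, 1098 bases after the stop codon (chr5:128258340-128258368, minus strand): attttcattaaTACTGTAgttatacacca
VCAN 7mer-A1, 293 bases after the stop codon (chr5:83580716-83580744, plus strand): gtataccagccTACTGTActatttaaaat
CCDC80 7mer-A1, 4147 bases after the stop codon (chr3:112601253-112601281, minus strand): ttatctgtgccTACTGTAtgttcagattt

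FBN2 held 4 matches, 2 of them 8mers, in a 3' UTR of 1546 bases. HAS2 held 1 7mer-m8, 499 bases after its stop codon, and CCDC80 and VCAN held 1 7mer-A1 each. No match was found in the longest 3' UTRs of LUM, EDIL3, CEMIP, FBN1 and CD44, of 1536 to 3613 bases. Of 12409 tested genes with an annotated 3' UTR, 4.6% had an 8mer as their strongest match, 8.17% a 7mer-m8, 11% a 7mer-A1 and 76.2% none. Genes with any match had longer 3' UTRs, with a median of 2989 bases against 1140 bases for genes without one. A match describes the letters of a transcript and shows no binding.

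**Figure D1:**
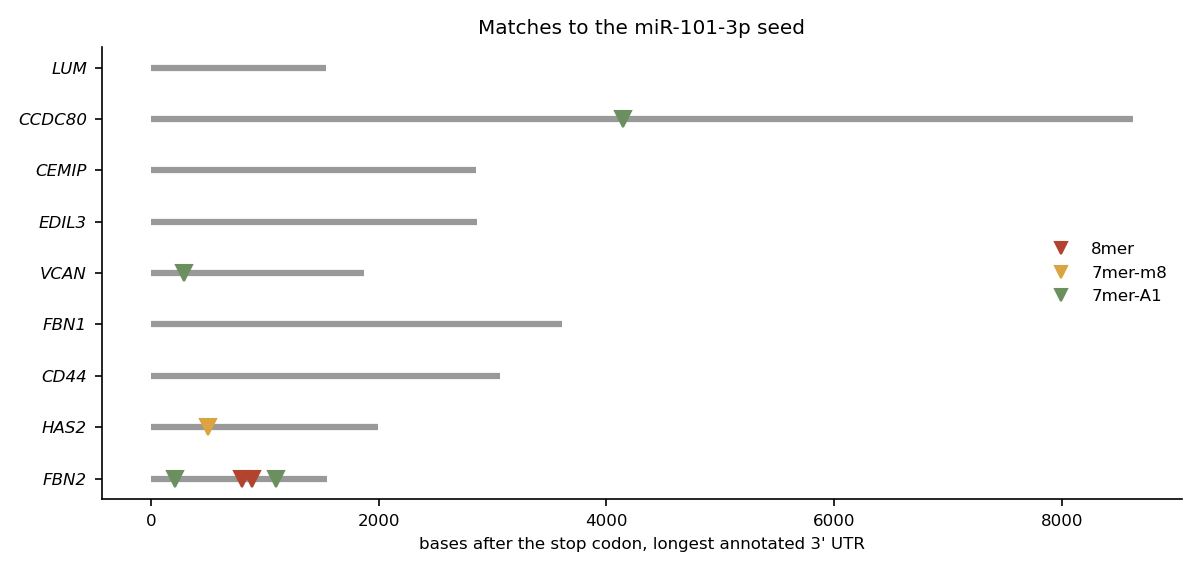
Matches to the seed of miR-101-3p along the longest annotated 3' UTR of each of the 9 genes, in bases after the stop codon. Grey bars give the length of the 3' UTR and triangles the matches by class. FBN2 holds 4 matches within 1546 bases, and the 5 genes LUM, CEMIP, EDIL3, FBN1 and CD44 hold none.

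Among the 9 genes, 5 stood higher with miR-101 (LUM, CCDC80, CEMIP, EDIL3 and VCAN), 1 stood lower (FBN2), and the groups overlapped for 3 (FBN1, HAS2 and CD44). The same 5 and 1 were past the threshold used over all genes, an edgeR adjusted p under 0.05, which 6.62% of 15905 tested genes passed (3.3% higher and 3.32% lower). Groups did not overlap for 15.1% of all tested genes, with 7.76% higher and 7.34% lower with miR-101. All 9 genes passed the filter on low counts. LUM passed it only through its miR-101 libraries, since its control libraries stood at 0 to 0.209 CPM. Since the genes were picked with these values known, nothing is read from these counts.

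**Figure D2:**
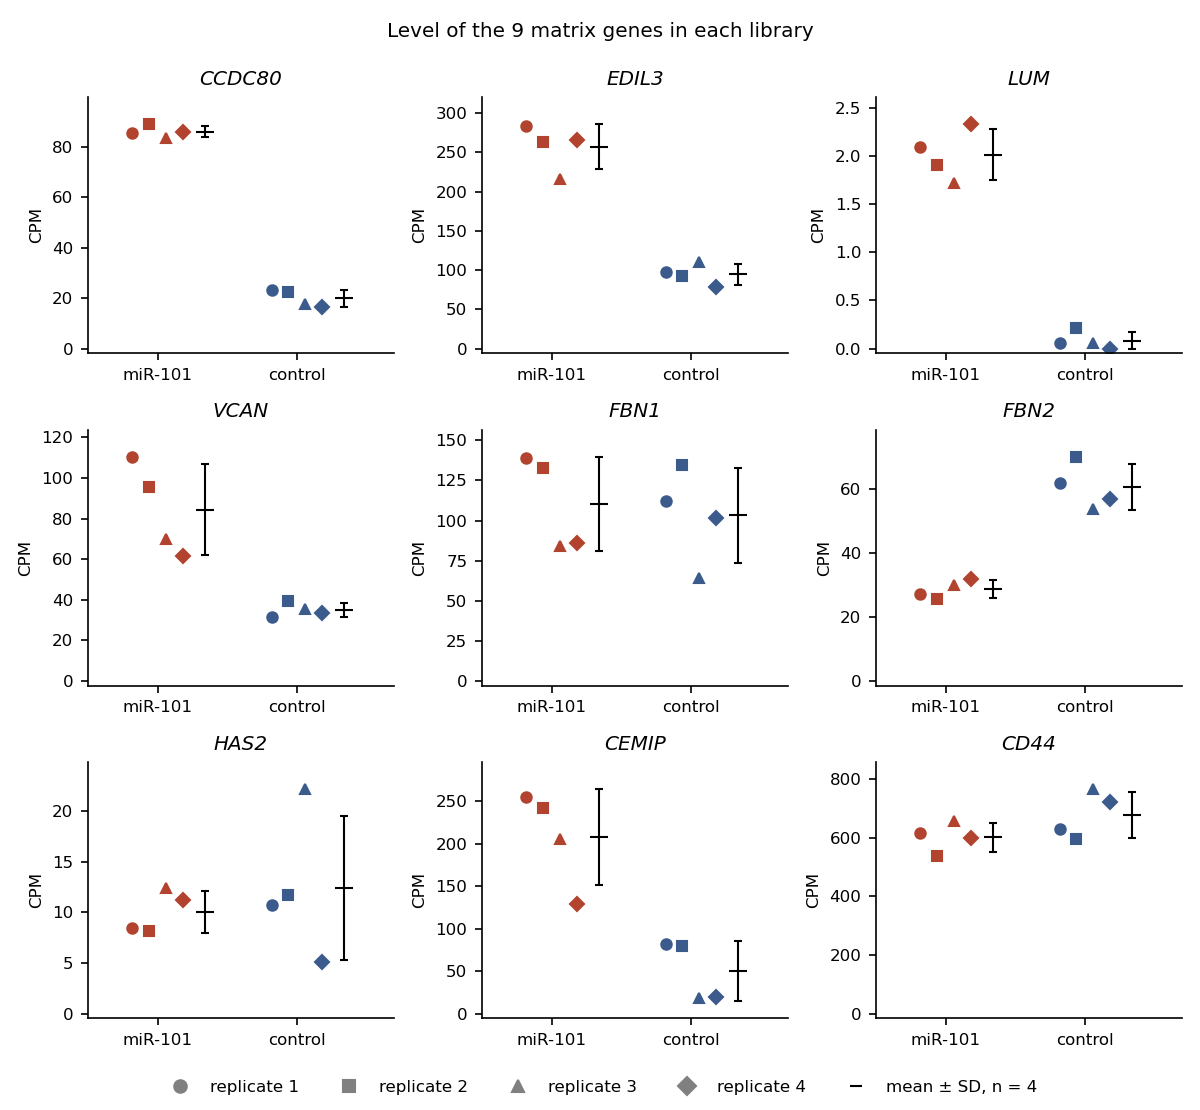
Level of each of the 9 genes in every library, in CPM from 0 on a linear axis, with miR-101 on the left and negative control on the right. Symbols give the replicate number and black bars the mean ± SD (n = 4). CCDC80, EDIL3, LUM, VCAN and CEMIP lie higher in each miR-101 library than in any control library, and FBN2 lies lower.

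CCDC80, a secreted protein of the extracellular matrix, had 85.4, 88.9, 83.5 and 85.8 CPM in miR-101 replicates 1 to 4. In control replicates 1 to 4 it had 23.1, 22.5, 17.8 and 16.4 CPM. The 4 miR-101 libraries lay close together and far above each control library. Mean ± SD (n = 4 per group) was 85.9 ± 2.23 CPM with miR-101 against 19.9 ± 3.37 CPM for control libraries, a log2 fold change of 2.11 ± 0.128 (SE), or 4.31-fold. The difference between same-numbered libraries ran from 1.88 to 2.38 on the log2 scale. The gene lies on chromosome 3, 112596794 to 112649530, on the minus strand (GRCh38, GENCODE 29).

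LUM encodes lumican, a small leucine-rich proteoglycan that binds collagen fibrils. It had 39, 38, 35 and 43 counts in miR-101 replicates 1 to 4, and 1, 4, 1 and 0 counts in control replicates 1 to 4. It was thus near the limit of detection in the control and low, but counted in every library, with miR-101. In the control library with 0 counts, a floor of 3 counts in that library allows up to 0.143 CPM. The levels were 2.01 ± 0.264 CPM with miR-101, against 0.0815 ± 0.0894 CPM for control libraries (SD, n = 4 per group). Summed over the 4 libraries, 155 counts stood against 6, a ratio of 24.8 after scaling to library size, with an exact 95% interval of 11.1 to 68.6 that covers counting error only. The fitted log2 fold change of 4.53 ± 0.453 depends on the prior count used for such low values, and was 5.55 without control replicate 2 and 5.91 in replicates 3 and 4 alone. LUM lies on chromosome 12, 91102629 to 91111831.

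EDIL3, a secreted protein that binds integrins on endothelial and other cells, had 283.8, 263.4, 216.3 and 265.4 CPM in miR-101 replicates 1 to 4. The control replicates had 97.5, 91.9, 110.4 and 77.9 CPM. The lowest miR-101 library was still well above the highest control library. Mean ± SD (n = 4 per group) was 257.2 ± 28.8 CPM with miR-101 against 94.4 ± 13.5 CPM for control libraries, a log2 fold change of 1.45 ± 0.131. The gene spans chromosome 5, 83940554 to 84384793, and its exons overlap an antisense transcript that was not analysed here.

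VCAN encodes versican, a large chondroitin sulfate proteoglycan that binds hyaluronan. It had 110.6, 95.5, 70.2 and 61.5 CPM in miR-101 replicates 1 to 4, and 31.4, 39.4, 35.3 and 33.7 CPM in control replicates 1 to 4. The control libraries were close to each other, while the miR-101 libraries of replicates 1 and 2 were higher than those of replicates 3 and 4. Mean ± SD (n = 4 per group) was 84.5 ± 22.6 CPM with miR-101 against 34.9 ± 3.36 CPM for control libraries. The log2 fold change was 1.27 ± 0.178, and 0.94 in replicates 3 and 4 alone. VCAN lies on chromosome 5, 83471465 to 83582303, on the opposite strand to VCAN-AS1, with which it shares exonic bases.

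Of the fibrillins, FBN1, the main fibrillin of adult microfibrils, had 139.0, 132.8, 84.2 and 86.2 CPM in miR-101 replicates 1 to 4, and 112.3, 134.9, 64.0 and 101.8 CPM in control replicates 1 to 4. Its groups overlapped, with a log2 fold change of 0.10 ± 0.233, and that value was -0.08 without negative control replicate 3. FBN2, the fibrillin known mainly from developing tissue, had 27.2, 25.8, 30.2 and 32.0 CPM with miR-101 and 62.1, 70.3, 53.8 and 56.8 CPM in the control. Each miR-101 library was thus lower than every control library. Mean ± SD of FBN2 (n = 4 per group) was 28.8 ± 2.84 CPM with miR-101 against 60.7 ± 7.23 CPM for control libraries, a log2 fold change of -1.08 ± 0.119. It was -0.83 in replicates 3 and 4 alone.

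Per length of exons, the ratio of FBN1 to FBN2 within a library was 4.21, 4.23, 2.29 and 2.21 in miR-101 replicates 1 to 4. In control replicates 1 to 4 it was 1.48, 1.58, 0.978 and 1.47. FBN1 was therefore the more abundant fibrillin per length in each miR-101 library and in 3 of the 4 control libraries. FBN1 lies on chromosome 15, 48408306 to 48645849, and FBN2 on chromosome 5, 128257909 to 128659185. SLC27A6 shares exonic bases with FBN2 on the other strand and stood at 0.842 ± 0.217 CPM with miR-101, against 0.389 ± 0.059 CPM for control libraries (SD, n = 4 per group), far below FBN2.

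CEMIP, a hyaluronan-binding protein that takes part in hyaluronan breakdown, had 254.3, 242.0, 204.9 and 128.7 CPM in miR-101 replicates 1 to 4. Control replicates 1 to 4 had 82.1, 79.8, 18.7 and 19.5 CPM. Control replicates 1 and 2 were about the same and lay far above control replicates 3 and 4, yet every miR-101 library was above every control library. Mean ± SD (n = 4 per group) was 207.5 ± 56.6 CPM with miR-101 against 50.0 ± 35.7 CPM for control libraries, with a log2 fold change of 2.05 ± 0.478, the largest standard error of the 9 genes. Between same-numbered libraries the log2 difference was 1.63 and 1.60 in pairs 1 and 2, and 3.44 and 2.72 in pairs 3 and 4. The fitted log2 fold change in replicates 3 and 4 alone was 3.13. CEMIP lies on chromosome 15, 80779343 to 80951776. It shares exonic bases with MESDC2, also named MESD, on the other strand, and whether counting used the strand is not given in the sources used here. MESDC2 stood at 88.9 ± 6.75 CPM with miR-101, against 86.8 ± 4.72 CPM for control libraries (SD, n = 4 per group), with overlapping groups.

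HAS2, a hyaluronan synthase, had 8.42, 8.15, 12.4 and 11.2 CPM in miR-101 replicates 1 to 4. Control replicates 1 to 4 had 10.8, 11.7, 22.2 and 5.07 CPM. The groups overlapped, and the control libraries spread widely, with replicate 3 highest and replicate 4 lowest of all 8 libraries. The log2 fold change was -0.30 ± 0.353, and it was 0.13 without negative control replicate 3. HAS2 shares exonic bases with HAS2-AS1 on the other strand, and lies on chromosome 8, 121612116 to 121641390.

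CD44, the main surface receptor for hyaluronan, was the most abundant of the 9 genes. It had 613.9, 536.3, 655.7 and 597.6 CPM in miR-101 replicates 1 to 4, and 627.4, 595.6, 765.3 and 721.7 CPM in control replicates 1 to 4. Its groups overlapped, although the miR-101 library was the lower one in each of the 4 same-numbered pairs. The log2 fold change was -0.17 ± 0.113, and the differences in the pairs ran from -0.27 to -0.03. CD44 lies on chromosome 11, 35138870 to 35232402, and CD44-AS1 shares exonic bases on the other strand.

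**Figure D3:**
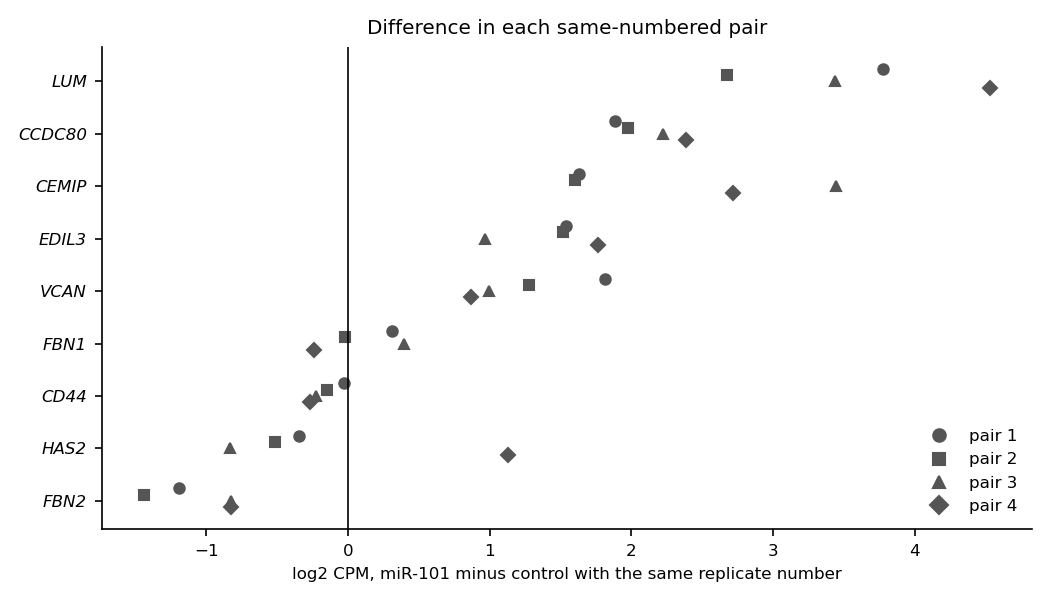
Difference in log2 CPM between the miR-101 and the negative control library of the same replicate number, for each of the 9 genes, with 1 symbol per pair and a line at 0. LUM, CCDC80, CEMIP, EDIL3 and VCAN lie above 0 in 4 of 4 pairs, FBN2 and CD44 below 0 in 4 of 4, and HAS2 ranges from -0.83 to 1.13.

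Levels were compared between genes as CPM per kb of exons in GENCODE 29. With miR-101 the order was CD44 at 60.1, EDIL3 at 44.8, CEMIP at 27.2, FBN1 at 6.88, CCDC80 at 6.57, VCAN at 5.70, HAS2 at 2.4, FBN2 at 2.2 and LUM at 0.668 CPM per kb. Libraries of CD44, EDIL3, CEMIP and LUM did not overlap with those of their neighbours in this order, while those of FBN1, CCDC80 and VCAN overlapped with each other, as did those of HAS2 and FBN2. In the control the order was CD44 at 67.7, EDIL3 at 16.5, CEMIP at 6.57, FBN1 at 6.43, FBN2 at 4.60, HAS2 at 2.97, VCAN at 2.36, CCDC80 at 1.52 and LUM at 0.0271 CPM per kb. There CEMIP, FBN1, FBN2 and HAS2 could not be ordered, since each of these neighbours overlapped over libraries, and HAS2 also overlapped with VCAN. CCDC80 lay above FBN2 with miR-101, where their libraries did not overlap, and below FBN2 in the control.

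The coefficient of variation, the SD as a percentage of the mean, was 2.6% for CCDC80 with miR-101 and 16.9% in the control. For CEMIP it was 27.3% with miR-101 and 71.4% in the control, and for HAS2 21.0% with miR-101 and 57.5% in the control. VCAN went the other way, at 26.8% with miR-101 and 9.63% in the control. The remaining members had the lower value with miR-101, by little for FBN1 (26.6% against 28.7%).

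For each member the genes with the most similar pattern over the 8 libraries were sought among genes averaging at least 1 CPM, by the root mean square difference of log2 CPM centred on each gene's own mean. A smaller value means a closer pattern, and no function is read from it. Nearest to CCDC80 were PCDH10 (0.192) and STK25 (0.223), nearest to EDIL3 SLC4A4 (0.157) and JAK2 (0.164), and nearest to VCAN PDGFD (0.145) and LONRF2 (0.181). LUM, at its low counts, had only distant neighbours, ENTPD1 (0.575) and TEX29 (0.60). Nearest to CEMIP were ITGA9 (0.334) and CHRNA9 (0.419), which were likewise lowest in control replicates 3 and 4. ITGA9 had 28.4, 26.5, 29.5 and 11.1 CPM in miR-101 replicates 1 to 4 and 7.47, 9.35, 3.35 and 1.82 CPM in control replicates 1 to 4. FBN1 was nearest to AGRN (0.0943) and TMEM132A (0.0945), FBN2 to XDH (0.111) and TBC1D9 (0.123), HAS2 to DNM3OS (0.149) and GLRX (0.177), and CD44 to ABI2 (0.0474) and RP11-307L3.2 (0.0527). Among the 9 genes themselves the closest patterns were those of EDIL3 and VCAN (0.273).

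The start regions of 3 genes are shown, CCDC80 and CEMIP among the genes that were higher with miR-101, and FBN2, which was lower. They run from 250 bases before to 50 bases after the start site, from RefSeq (GRCh38.p14), and the capitals mark matches on either strand to the motifs named in the next paragraph. Of the 9 genes, 7 were matched in that table, and LUM and HAS2 were not.
CCDC80 promoter (chr3:112641094-112641393, minus strand): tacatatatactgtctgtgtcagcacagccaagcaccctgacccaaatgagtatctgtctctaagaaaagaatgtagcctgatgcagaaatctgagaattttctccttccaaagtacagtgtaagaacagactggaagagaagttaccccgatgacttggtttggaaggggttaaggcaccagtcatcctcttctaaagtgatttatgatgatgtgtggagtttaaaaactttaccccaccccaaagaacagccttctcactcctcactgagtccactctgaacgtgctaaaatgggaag
CEMIP promoter (chr15:80779120-80779419, plus strand): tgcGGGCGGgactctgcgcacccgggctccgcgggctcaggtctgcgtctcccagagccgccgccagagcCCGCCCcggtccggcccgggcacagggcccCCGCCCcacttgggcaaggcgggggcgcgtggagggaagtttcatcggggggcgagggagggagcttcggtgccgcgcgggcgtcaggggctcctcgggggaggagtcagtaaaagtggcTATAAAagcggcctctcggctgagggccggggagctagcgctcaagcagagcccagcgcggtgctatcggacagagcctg
FBN2 promoter (chr5:128538196-128538495, minus strand): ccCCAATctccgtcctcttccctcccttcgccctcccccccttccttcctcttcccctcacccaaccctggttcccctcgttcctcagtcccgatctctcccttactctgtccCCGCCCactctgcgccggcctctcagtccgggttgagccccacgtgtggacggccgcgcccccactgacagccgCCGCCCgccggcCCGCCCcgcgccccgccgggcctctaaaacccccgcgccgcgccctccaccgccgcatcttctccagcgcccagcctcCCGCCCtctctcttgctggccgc

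The motifs searched on both strands were the TATA box (TATAAA), the CCAAT box (CCAAT), the GC box (GGGCGG), AP-1 (TGANTCA), RUNX (TGTGGT) and TEAD (GGAATG). They are found in 11.5%, 34.6%, 45.0%, 7.71%, 13.1% and 14% of all 35114 such regions, in that order. The CCDC80 region, with 43.3% GC, held none of them. The CEMIP region, with 73.0% GC, held a TATA box 30 bases before the start site and 3 GC boxes. FBN2, with 72.7% GC, held 4 GC boxes and a CCAAT box. Each of the 2 EDIL3 regions in the table held 4 GC boxes that overlap in pairs, CD44 held 2 GC boxes, VCAN held 1 GC box, and FBN1 held 1 TEAD match.

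Close relatives of the 9 genes were examined next, taken by relation whatever their values. HAS3, TMEM2 and ACAN also belong to the wider lists below, which were chosen with earlier results of these data known. Among the hyaluronan synthases other than HAS2, HAS3 could be tested, and it fell. HAS3 had 2.25, 2.20, 2.50 and 2.11 CPM in miR-101 replicates 1 to 4, and 7.58, 7.42, 5.28 and 4.59 CPM in control replicates 1 to 4. Every miR-101 library was below every control library, with means of 2.27 ± 0.165 CPM with miR-101, against 6.22 ± 1.51 CPM for control libraries (SD, n = 4 per group). The log2 fold change was -1.45 ± 0.202 (edgeR adjusted p = 0.00271), and the highest adjusted p when 1 library was left out was 0.0152. With the counts of replicates 1 and 2 summed to 1 sample per group it was 0.0432. In replicates 3 and 4 alone the log2 fold change was -1.09 with an edgeR adjusted p of 0.361. HAS3 shares exonic bases with CHTF8 on the other strand, which stood at 75.0 CPM with miR-101, against 85.0 CPM in the control, so its counts are uncertain. Its longest 3' UTR, of 2402 bases, held no seed match. Whether HAS3 and HAS2 differ in their response was not tested.

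Per length of exons, the ratio of HAS2 to HAS3 within a library was 4.72, 4.68, 6.29 and 6.70 in miR-101 replicates 1 to 4. In control replicates 1 to 4 it was 1.79, 1.99, 5.32 and 1.39. Control replicate 3, the library with the highest HAS2, was the 1 control library within the range of the miR-101 libraries.

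**Figure D4:**
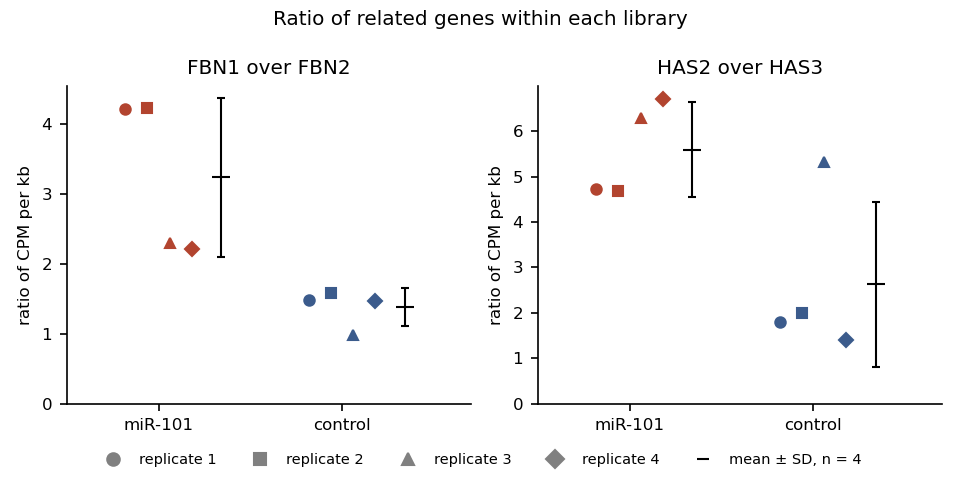
Ratio of FBN1 to FBN2 (left panel) and of HAS2 to HAS3 (right panel) within each library, as a ratio of CPM per kb of exons on a linear axis from 0, with miR-101 on the left and negative control on the right of each panel. Symbols give the replicate number and bars the mean ± SD (n = 4). The FBN1 to FBN2 ratio lies between 2.21 and 4.23 with miR-101 and between 0.978 and 1.58 in the control, and the HAS2 to HAS3 ratios overlap through control replicate 3.

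The other relatives that could be tested did not pass the threshold. TMEM2, a cell-surface relative of CEMIP also named CEMIP2, stood at 101.1 ± 29.5 CPM with miR-101, against 95.5 ± 34.6 CPM for control libraries (SD, n = 4 per group; log2 fold change 0.08 ± 0.288, edgeR adjusted p = 0.902). ACAN, which encodes aggrecan, the cartilage relative of versican, stood at 1.47 ± 0.139 CPM with miR-101, against 1.45 ± 0.319 CPM in the control (log2 fold change 0.02 ± 0.215, edgeR adjusted p = 0.978). MFGE8, a relative of EDIL3, had a log2 fold change of 0.24 ± 0.173 (edgeR adjusted p = 0.448). SRPX and SRPX2, relatives of CCDC80, had log2 fold changes of 0.41 ± 0.149 and -0.10 ± 0.255 (edgeR adjusted p = 0.131 and 0.868). SRPX2 shares exonic bases with SYTL4 on the other strand, which stood at 18.6 CPM with miR-101, against 24.2 CPM in the control, so its counts are uncertain. Under the replicate block the edgeR adjusted p of SRPX was 0.0425.

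Wider lists of matrix and glycosaminoglycan genes, with the 9 genes left out, named 170 genes, of which 113 were among the deposited symbols and tested. Of the 113, 11 rose and 4 fell (13.3%, against 6.62% of all tested genes). The lists were chosen with earlier results of these data known, so nothing is read from that share. The median log2 fold change was 0.09 over these lists and -0.005 over all tested genes. With the replicate block, which called 10.5% of all tested genes, all 15 genes kept the call. Of the 15, 6 kept it whichever of the 8 libraries was left out (HAS3, SDC4, SDC2, LOXL2, CHSY3 and DSE), 3 kept it with replicates 1 and 2 summed (HAS3, SDC4 and CHSY3), a setting that called 1.09% of all genes tested, and 0 kept it in replicates 3 and 4 alone. In replicates 3 and 4 alone, 6 of all 15833 genes tested there were called.

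The hyaluronan list named 32 genes, of which 14 were among the deposited symbols and tested. Of these, 1 was higher and 1 lower (14.3%, against 6.62% of all tested genes), with a median of -0.05. With the replicate block, which called 10.5% of all tested genes, 2 were higher and 1 lower. As above, nothing is read from the share of a list. HAPLN3, a hyaluronan link protein named after its values were seen, was the 1 added (log2 fold change 0.77 ± 0.18, edgeR adjusted p = 0.0327, against 0.0709 without the block). HAS3 was the gene that fell. UGDH, the enzyme that makes the glucuronic acid donor for hyaluronan and other chains, rose. It stood at 59.2 ± 0.869 CPM with miR-101, against 46.0 ± 2.24 CPM for control libraries (SD, n = 4 per group), a log2 fold change of 0.36 ± 0.0874 (edgeR adjusted p = 0.0328), and shares exonic bases with UGDH-AS1 on the other strand. UGDH lost its call when any 1 of the 4 miR-101 libraries, or control replicate 1 or 2, was left out (edgeR adjusted p up to 0.109). The hyaluronidase gene HYAL2 (log2 fold change -0.14) and the hyaluronan-binding HMMR (0.08) were not called. HYAL2 and HMMR, like LTBP1 and FBLN2 below, were chosen for their roles after their values were seen.

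Other proteoglycan core proteins numbered 22 tested genes, of which 3 rose and 1 fell (18.2%, against 6.62% of all tested genes). Their median was -0.01. With the replicate block the counts were 5 higher and 3 lower, against 10.5% called of all tested genes. Added were SRGN and SPOCK1, both lower, and ESM1 and COL15A1, both higher, all named after their values were seen. The edgeR adjusted p of SRGN was 0.00959 with the block, against 0.308 without it. That of COL15A1 was 0.00673, against 0.2165. SDC4, a membrane-spanning heparan sulfate proteoglycan of the syndecan family, had 108.5, 113.2, 120.2 and 94.3 CPM in miR-101 replicates 1 to 4. In control replicates 1 to 4 it had 60.7, 60.6, 52.6 and 46.1 CPM. All 4 miR-101 libraries were above each control library (log2 fold change 0.99 ± 0.121, edgeR adjusted p = 0.00151). SDC2, another syndecan, stood at 94.2 ± 12.7 CPM with miR-101, against 48.6 ± 11.8 CPM in the control (log2 fold change 0.95 ± 0.176, edgeR adjusted p = 0.0102).

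GPC6, a glypican anchored to the membrane by a lipid, stood at 67.1 ± 2.50 CPM with miR-101, against 35.9 ± 12.4 CPM in the control (log2 fold change 0.91 ± 0.234, edgeR adjusted p = 0.0434). HSPG2, which encodes perlecan of basement membranes, fell to 1.02 ± 0.361 CPM with miR-101, against 2.51 ± 0.847 CPM in the control (log2 fold change -1.28 ± 0.332, edgeR adjusted p = 0.0449). GPC6 lost its call when any 1 of the 4 miR-101 libraries, or control replicate 1 or 2, was left out (edgeR adjusted p up to 0.113). HSPG2 lost its call in every fit that left out 1 library except the fit without control replicate 4 (edgeR adjusted p up to 0.121).

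Of the 17 other small leucine-rich proteoglycans listed, only 2 were among the deposited symbols, and DCN, FMOD, KERA and PRELP were among those absent. The 2 tested were BGN (log2 fold change -0.28 ± 0.355, edgeR adjusted p = 0.693) and TSKU (0.25 ± 0.181, edgeR adjusted p = 0.447). Neither was called by edgeR or DESeq2, and 0 had an unadjusted p under 0.05.

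Genes of microfibrils and elastic fibres numbered 28 tested by edgeR, of which 2 rose and 0 fell (7.14%, against 6.62% of all tested genes). At an unadjusted edgeR p under 0.05, 5 were higher and 2 lower. The share of all tested genes at that unadjusted p is not given here, so nothing is read from these counts. DESeq2 called 4 of 26 genes higher and 0 lower, where it called 10.9% of all genes it tested. The median log2 fold change was 0.05. LOXL2, an enzyme that cross-links collagen and elastin, stood at 150.5 ± 17.0 CPM with miR-101, against 90.9 ± 6.14 CPM for control libraries (SD, n = 4 per group; log2 fold change 0.73 ± 0.108, edgeR adjusted p = 0.00361). LOXL2 shares exonic bases with ENTPD4 on the same strand and is uncertain for that reason. EFEMP1, a fibulin, stood at 188.6 ± 29.7 CPM with miR-101, against 120.1 ± 18.9 CPM in the control (log2 fold change 0.65 ± 0.143, edgeR adjusted p = 0.0225). EFEMP1 lost its call without miR-101 replicates 1 or 2 and without control replicates 1 or 2 (edgeR adjusted p up to 0.0752).

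The replicate block called 4 of these 28 genes, all higher, against 10.5% of all tested genes, and LOX and EMILIN2 were the 2 added, named after their values were seen. LOX, the founding lysyl oxidase, had a log2 fold change of 0.82 ± 0.222 without the block (edgeR adjusted p = 0.0537). With the block it was 0.87 ± 0.152 (edgeR adjusted p = 0.0112). LTBP1 (log2 fold change -0.17) and FBLN2 (0.07), which attach to fibrillin microfibrils, were not called.

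Genes that build or modify glycosaminoglycan chains numbered 42 tested, of which 5 rose and 2 fell (16.7%, against 6.62% of all tested genes). Their median was 0.20. With the replicate block 10 rose and 2 fell, where the block called 10.5% of all tested genes. Added were CHST15, EXT1, HS6ST1, HS3ST3B1 and SULF2, all higher and named after their values were seen. The edgeR adjusted p of CHST15 was 0.023 with the block, against 0.514 without it. That of SULF2 was 0.0183, against 0.5. The chondroitin synthases CHSY3 (log2 fold change 0.89 ± 0.126, edgeR adjusted p = 0.00287) and CHSY1 (0.56 ± 0.14, edgeR adjusted p = 0.0391) rose. CHSY3 had 22.1, 24.2, 24.7 and 26.0 CPM in miR-101 replicates 1 to 4 and 12.5, 13.5, 15.1 and 11.1 CPM in control replicates 1 to 4, with no overlap. DSE, the epimerase that turns chondroitin into dermatan chains, rose to 49.2 ± 7.98 CPM with miR-101, against 27.9 ± 3.36 CPM for control libraries (SD, n = 4 per group; edgeR adjusted p = 0.00711). DSE shares exonic bases with TSPYL1 on the other strand, which stood at 78.6 CPM with miR-101, against 77.0 CPM in the control, so its counts are uncertain. It holds 3 seed matches in its longest 3' UTR of 7515 bases. Among the other called list genes, SDC4 and EFEMP1 held 1 7mer-A1 each and SDC2 held 1 7mer-m8. SLC35D1, named below, held 2 matches, and the remaining called list genes held none. Of the relatives that were not called, SRPX2 held 1 7mer-m8. Over all tested genes with an annotated 3' UTR, 23.8% held a match.

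On heparan sulfate chains, SULF1, which removes sulfate groups, rose by a log2 fold change of 1.43 ± 0.311 (edgeR adjusted p = 0.0211), and the epimerase GLCE rose by 0.66 ± 0.166 (edgeR adjusted p = 0.0396). HS6ST3, a heparan sulfate sulfotransferase, fell (log2 fold change -0.85 ± 0.174, edgeR adjusted p = 0.0162), as did SLC35D1, a carrier of nucleotide sugars (-0.56 ± 0.122, edgeR adjusted p = 0.0208). These calls depended on which libraries were included. SULF1 and HS6ST3 were lost without miR-101 replicates 2 or 3, and also without control replicate 1 for SULF1 and control replicate 2 for HS6ST3 (edgeR adjusted p up to 0.0663 and 0.0585). SLC35D1 was lost without miR-101 replicate 1, miR-101 replicate 2 or control replicate 2 (up to 0.0663 by edgeR). CHSY1 and GLCE were lost when miR-101 replicate 1, 2 or 3 or control replicate 2 or 3 was left out, and GLCE also without control replicate 1 (edgeR adjusted p up to 0.108 and 0.124).

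Of the ADAMTS proteases that cleave versican and related core proteins, 5 were tested and 0 were called by edgeR or DESeq2, with 0 at an unadjusted p under 0.05. ADAMTS1 had a log2 fold change of 0.27 ± 0.495 and ADAMTS5 of 0.43 ± 0.346. ADAMTS5 averaged 0.898 CPM with miR-101, against 0.663 CPM in the control. ADAMTS1 had 4.67, 5.22, 7.32 and 26.6 CPM in control replicates 1 to 4, against 10.5 to 19.3 CPM with miR-101. Control replicate 4 thus lay above every miR-101 library, and the other control libraries lay below them all. Without control replicate 4, edgeR called 1 of the 5 genes higher, so the count of 0 depended on that library. Which gene was called there is not reported here. Both proteases were picked with their values in view.

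**Figure D5:**
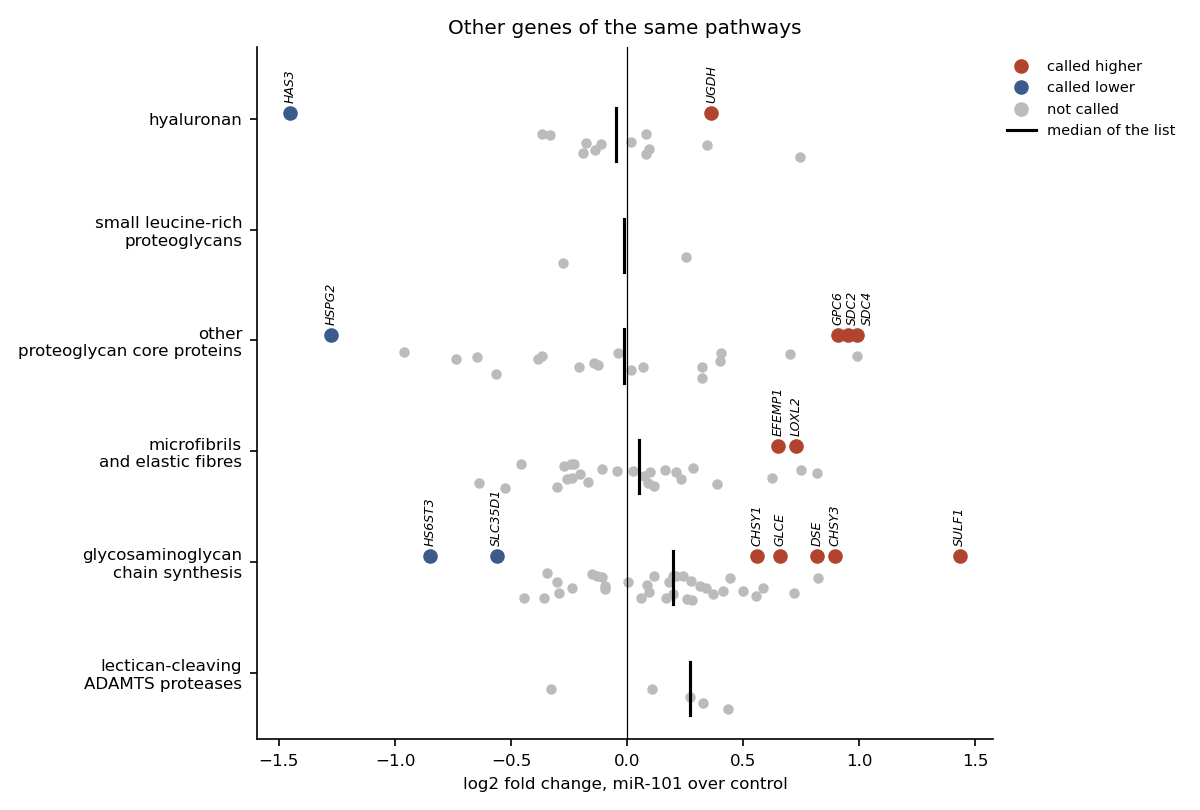
Log2 fold change of miR-101 over negative control for each tested gene of the 6 lists, with the 9 genes left out. Red points were called higher and blue points lower (edgeR adjusted p under 0.05), grey points were not called, and black bars mark the median of each list. HAS3 and HSPG2 lie furthest to the left and SULF1 furthest to the right.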

How the data were processed

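The authors deposited raw counts, whole numbers by gene symbol (15982 of them), from 8 libraries. Ribo-zero Gold was the library protocol, per the labels. Software named in the submitters' processing notes is StringTie 1.2.4, TopHat2 2.0.14 and bcl2fastq 2.18.0.12, with hg38 as the build. Which counter, annotation and strand setting were used is not given in the sources.

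The test was edgeR 4.0.16 under R 4.3.3 (filterByExpr, TMM factors, glmQLFit and glmQLFTest with the group as the only term, Benjamini-Hochberg adjustment over 15905 genes). Genes with an adjusted p under 0.05 count as called. Log2 fold changes have miR-101 on top, and their standard errors come from the fit. The fit was tested on simulated data. DESeq2 1.42.0, its size factors in edgeR, no low-count filter, a replicate block, replicates 1 and 2 summed, replicates 3 and 4 alone, and each library left out were alternatives. p-values measure the spread between these cultures. Same-numbered libraries deviated together in each of the 4 pairs (correlation over genes of 0.328, 0.425, 0.185 and 0.209), so the numbers were taken to pair them. The fit as reported leaves that pairing out, and the replicate block is the alternative that uses it. Differently numbered libraries correlated at -0.449 to 0.391, and some of them more closely than the same-numbered ones, such as miR-101 replicate 4 with control replicate 3 (0.391).

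The 9 genes, the gene lists and the alternatives were chosen with earlier results of these data known. Named besides the 9 are their close relatives, up to 6 called genes per list and direction averaging at least 1 CPM, and the 2 genes nearest in pattern to each. Symbols were matched to GENCODE 29, 14035 by name and 316 by an older name.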

Additional observations from a re-analysis of the deposited data

Results flagged for a closer look

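Libraries far from the other 3 of their group were sought in 58 groups of 4 libraries, and chance flags about 5% of such groups. HSPG2 stood at 0.488 CPM in miR-101 replicate 4, against 1.15 to 1.27 CPM in the other 3 miR-101 libraries. LOXL2 stood at 100.03 CPM in control replicate 1, against 86.8 to 89.0 CPM in the other 3 control libraries. SRPX stood at 21.7 CPM in control replicate 4, against 26.6 to 27.4 CPM in the other 3.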

How the results depend on the processing

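Over all genes, 1714 were called by DESeq2, 1676 with the replicate block, 173 with replicates 1 and 2 summed and 6 in replicates 3 and 4 alone, against 1053 in the fit as reported, and 488 to 1419 when 1 library was left out. In the hyaluronan list (2 called as reported) the counts were 1 with replicates 1 and 2 summed, 0 in replicates 3 and 4 alone, and 1 to 2 with 1 library left out. Among other proteoglycan core proteins (4 as reported) they were 8 with the block, 1 summed, 0 in replicates 3 and 4 alone, and 2 to 6 with 1 library left out. Among microfibril genes (2 as reported) they were 4 by DESeq2, 4 with the block, 0 summed, 0 in replicates 3 and 4 alone, and 1 to 4 with 1 library left out. For glycosaminoglycan chain synthesis (7 as reported) they were 12 with the block, 1 summed, 0 in replicates 3 and 4 alone, and 2 to 10 with 1 library left out, and for the ADAMTS list 0 to 1 with 1 library left out. The fits on summed counts or on replicates 3 and 4 use fewer samples; for the other changes the cause was not tested.

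The sign turned for 3 relatives that were not called. ACAN was at -0.027 with replicates 1 and 2 summed, at -0.14 in replicates 3 and 4 alone, and at -0.083 to 0.115 with 1 library left out. SRPX2 ranged from -0.30 to 0.10 and TMEM2 from -0.13 to 0.27 with 1 library left out. DESeq2's size factors in edgeR and the fit without a filter moved no count of calls by more than 1.5 times. Among the 15 called list genes and the 5 relatives not called, the replicate block changed the call of SRPX alone; it was not compared for the genes nearest in pattern. Of the 9 genes, the 6 whose groups did not overlap kept their direction under all 14 alternatives, while FBN1 and HAS2 did not. LUM ranged from 4.08 to 5.91 and CEMIP from 1.77 to 3.13 on the log2 scale. Depth limits LUM in the control, where its libraries held 0 to 4 counts.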
